A study of Mus musculus with 8 samples.

Results

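The genes described here encode the initiation and elongation factors of cytosolic protein synthesis, together with the kinases, binding proteins and methyltransferases that carry their names. They were taken by symbol, as every row whose symbol is Eif or Eef followed by a digit and then only lower-case letters or digits, leaving out Eif2s3x and Eif2s3y, which gave 42 of the 50952 rows of the table. Subcutaneous white fat was taken from C57BL/6J mice of wild-type genotype that ate freely (ad libitum, AL) or were kept on calorie restriction (CR) from an age of 3 months until 9 months, a span of 6 months. Of the 8 mice named in the labels, 4 on each diet, the table analysed here has 7 libraries, AL2, AL3 and AL4 for the first diet and CR1, CR2, CR3 and CR4 for the second. All mice shared genotype and strain, no pooling is stated, and the labels give neither the degree of restriction nor the sex or the time since the last meal. The tissue is a whole fat pad, so each value mixes adipocytes with the other cells of the depot, and fewer cells of a type and less RNA per cell cannot be told apart. Rows with an FDR under 0.05 in the authors' deposited table were not analysed here, and the factors described had a deposited FDR of 0.0505 or more. Factors without a row, among them the cap-binding protein Eif4e, the scaffold Eif4g1, the helicase Eif4a1 and all subunits of the exchange factor eIF2B, were not analysed here.

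Translation starts when eIF1, eIF1A, eIF2 with the initiator tRNA, eIF3 and eIF5 assemble on the small ribosomal subunit, which is brought to the capped end of an mRNA by the eIF4 factors. eEF1A, recharged by the eEF1B exchange factors, then delivers each aminoacyl-tRNA, and eEF2 moves the ribosome along the message. Cells slow this process when nutrients or growth factors are scarce. Kinases of the Eif2ak family phosphorylate eIF2 alpha, 4E-BP proteins block the cap-binding factor when mTORC1 activity is low, and eEF2 kinase inactivates eEF2. These controls act on proteins, and only transcript levels were measured here.

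TPM (reads scaled by gene length and to a fixed total per library) are given as deposited. The rows held 49.0% to 53.1% of the TPM total in AL libraries and 42.9% to 45.01% in CR libraries, and 4147004 to 8896615 recovered reads per library. The series' design text gives about 400000000 reads per sample, so read numbers given here are those that the TPM steps imply and may understate the sequencing depth. The tested members had between 8 and 37744 reads each in a library, with Eif4ebp3 lowest and Eef1a1 highest. Over 9883 tested genes the median change in log2(TPM + 1) was -0.20, so 2 scales are used. On the deposited scale TPM were compared as they stand. For the relative change, given as the log2 difference CR minus AL with its standard error, each library was first divided by the median of its ratios to the geometric means of the tested genes, which sets the typical gene near 0 (median -0.01). The added 1 TPM understates the change of low genes. AL3 had the largest divisor, at 1.16, and 40.6% of the tested genes had their highest deposited TPM in that library, as did 17 of the 40 tested members.

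Mean transcript levels of the tested members ran from 3.55 to 2676 TPM. Eef1a1, which encodes the tRNA-delivering factor eEF1A in most tissues, was the most abundant, with 2755, 3129 and 2737 TPM in AL2, AL3 and AL4 and 2448, 2483, 2624 and 2557 TPM in CR1 to CR4. Eef2, the translocase gene, came second, with 1811, 1940.2 and 1668 TPM in AL2, AL3 and AL4 and 1330.2, 1336, 1504 and 1465 TPM in CR1 to CR4. These 2 elongation factor genes stood far above every initiation factor. Next was Eif1, the start codon selection factor, with 415, 397 and 349.9 TPM in AL2, AL3 and AL4 and 422, 442, 437 and 436 TPM in CR1 to CR4. Eif4ebp1, the gene of the cap-binding inhibitor 4E-BP1, followed with 357, 419 and 403 TPM in AL2, AL3 and AL4 and 341, 354, 337 and 361 TPM in CR1 to CR4, and Eif4g2, a scaffold related to eIF4G that lacks the site for the cap-binding protein, with 308, 308 and 300.2 TPM in AL2, AL3 and AL4 and 258, 268, 312 and 312 TPM in CR1 to CR4. Of these 5, Eif1 was higher in every CR library than in any AL library, Eef1a1 and Eef2 were lower in every CR library, and for Eif4ebp1 and Eif4g2 the diets overlapped. Within each library the order was Eef1a1, Eef2, then Eif1 and Eif4ebp1, then Eif4g2, and only Eif1 and Eif4ebp1 changed places, with Eif4ebp1 the higher of the pair in AL3 and AL4. At the lower end, Eif5a2, the second gene for the factor eIF5A, had 4.03 to 4.32 TPM in AL and 2.48 to 3.65 TPM in CR, and Eif2ak4, which encodes the amino acid sensing kinase GCN2, had 6.67 to 8.23 TPM in AL and 6.42 to 7.04 TPM in CR. Eif4e1b, a cap-binding protein gene known from germ cells, and Eif2c5, annotated as a long noncoding RNA in GENCODE M21, were listed at 0 in all 7 libraries and were not tested. The other 40 members passed the filter of 1 TPM in at least 4 libraries, and all 40 were at 1 TPM or more in each of the 7 libraries.

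**Figure D1:**
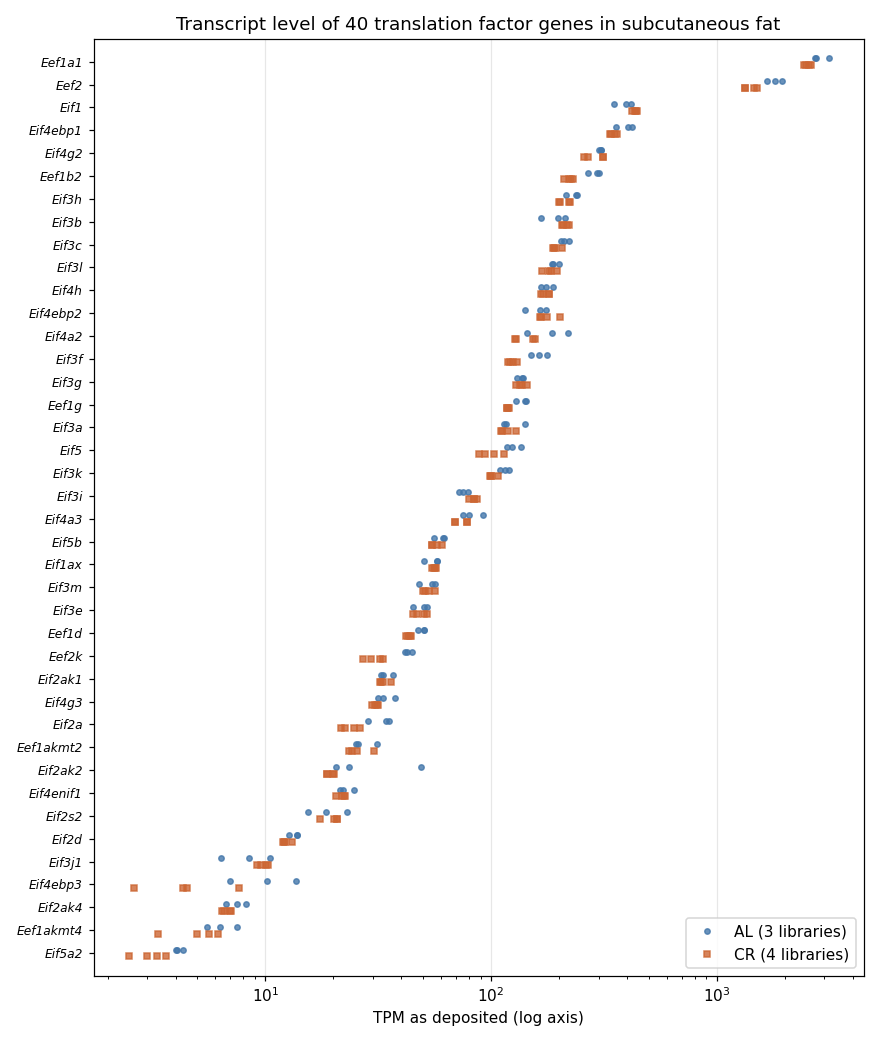
Deposited TPM (log axis) of the 40 tested members, ordered by their mean, with circles for the 3 AL libraries and squares for the 4 CR libraries. Eef1a1 and Eef2 lie above 1330 TPM in every library, while the lowest member, Eif5a2, lies between 2.48 and 4.32 TPM.

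Between libraries of one diet the members had a lower spread than the typical gene. Their median coefficient of variation was 7.7% in AL and 4.89% in CR, against 14.2% and 11.4% over all tested genes. The comparison was not matched for transcript level, so it cannot show a trait of these factors. A filter on a mean of 5 TPM kept 39 of the 40 tested members, and 6671 genes in all against the 9883 tested. The widest spreads were those of Eif2ak2 in AL, at 50.2%, and of Eif4ebp3 in CR, at 43.7%, and the narrowest that of Eef1g in CR, at 0.784%.

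Calorie restriction was compared with ad libitum feeding to ask which transcripts the diet altered. On the deposited scale 7 of the 40 tested members were lower in CR at an adjusted p under 0.05 (limma, Benjamini-Hochberg over all tested genes) and 0 were higher. The background was 17.6% of tested genes lower, 0.546% higher and 18.2% in both directions, so the members' share of 17.5% was close to that of all genes. The 7 were the elongation factor genes Eef1b2, Eef2, Eef1g and Eef1d, the eEF2 kinase gene Eef2k, the eIF3 subunit gene Eif3f and Eif2a. Without AL3, CR1 or CR2, 3 calls were left in each case, and these were Eef1b2, Eef2k and Eif3f, which kept an adjusted p under 0.05 with any 1 of the 7 libraries left out. Eef2 kept it in 4 of these 7 fits, Eif2a in 3, and Eef1d and Eef1g in 1 each. At an unadjusted p under 0.05 on the deposited scale, 12 members were lower (30% against 33.2% of all genes) and 2 were higher (5% against 2.07%), a background of 35.3% in both directions. The diets did not overlap on that scale for 12 members with CR below AL (background 31.1%) and for 2 with CR above AL, Eif1 and Eif3i (background 2.17%, and 33.2% in both directions). After median-ratio scaling limma called 0 of 40 members at an adjusted p under 0.05, where the background was 0.0506% higher, 0% lower and 0.0506% in both directions, and limma's voom on the recovered reads also called 0. At an unadjusted p under 0.05 the scaled levels of 13 members were higher (32.5%, background 15.8%) and those of 5 were lower (12.5%, background 13.2%), together 45% against 29.0%. These shares do not measure the size of a change. Regardless of sign, the median relative change was 0.149 over members and 0.216 over all tested genes. The median standard error was 0.0735 over members and 0.134 over all tested genes, so smaller changes reached that threshold in members. The scaled levels did not overlap for 12 members with CR above AL (background 13.9%) and for 3 with CR below AL (background 12.7%), together 37.5% against 26.6%. At an adjusted p under 0.1, 6 members were higher (15% against 8.33% of all genes) and 1 was lower (2.5% against 5.18%). The relative change of 28 members was above 0, with a median of 0.09 over members and -0.01 over all genes, and the highest was 0.41, for Eif3j1. The authors' deposited table gives an FDR under 0.1 for 6 members, namely Eif3i at 0.0505, Eif1 at 0.0573, Eif3b at 0.0640, Eif4ebp2 at 0.0837, Eif4ebp3 at 0.0863 and Eif3j1 at 0.0914, and 9.73% of the tested genes lay under that value. None of the 7 members called lower on the deposited scale was among them. Their FDR in that table was 0.213 for Eef2k, 0.232 for Eif2a, 0.442 for Eif3f, 0.532 for Eef1b2, 0.602 for Eef2, 0.902 for Eef1d and 0.970 for Eef1g. No row with a deposited FDR under 0.05 was analysed here, so a share of changed factors cannot be given for the family. For the same reason, the 0 of 40 calls after scaling cannot show that the factors were unchanged.

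**Figure D2:**
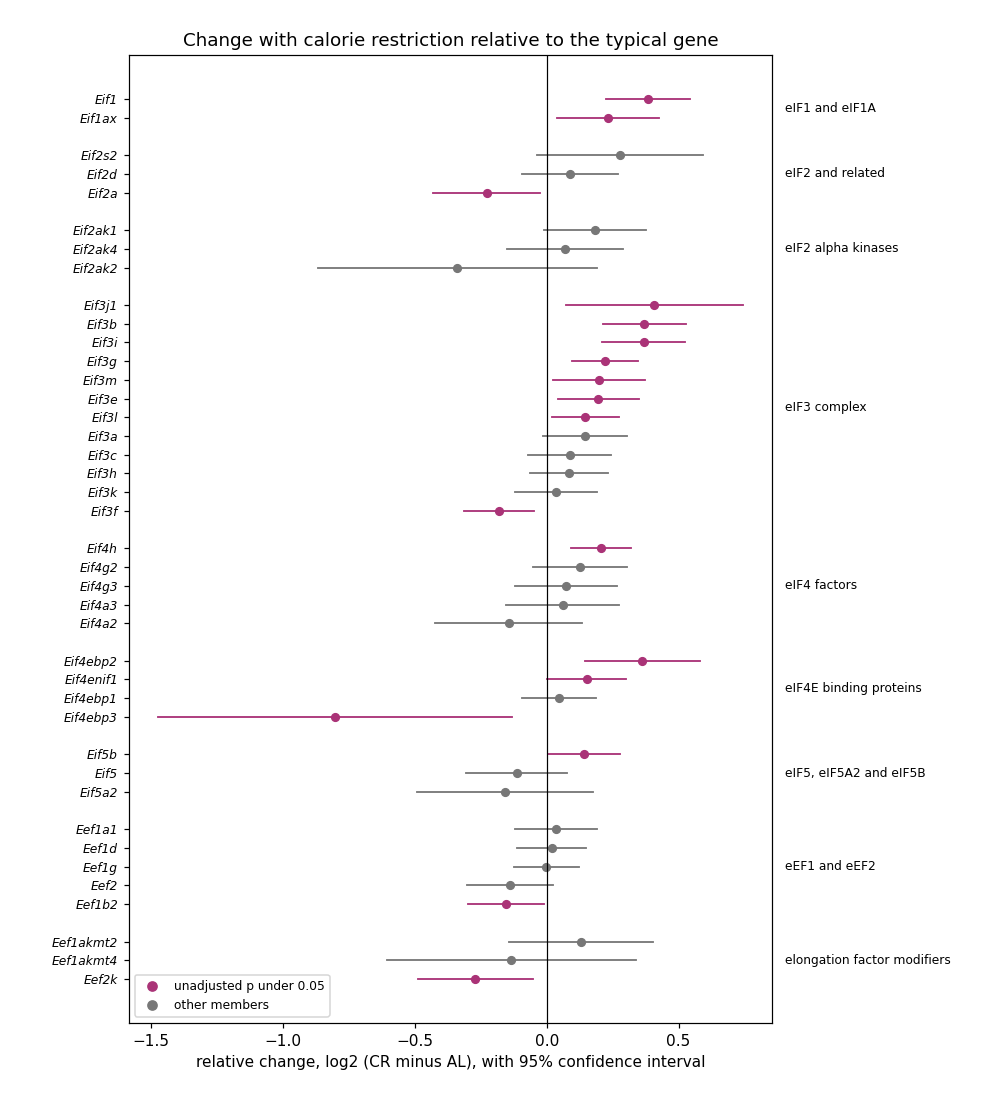
Relative change of the 40 tested members (x axis, log2 CR minus AL after median-ratio scaling, with 95% confidence intervals), grouped by role. The 18 members with an unadjusted p under 0.05 are coloured, 13 of them above 0 and 5 below, and none had an adjusted p under 0.05.

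The elongation machinery held 4 of the 7 calls on the deposited scale. Of its 5 measured factors, 4 fell in CR there, where 17.6% of all tested genes did, and Eef1a1 did not pass; 0 of 5 passed after scaling. Eef1b2, the catalytic subunit of the eEF1B exchange factor that reloads eEF1A with GTP, had 301, 294 and 270.2 TPM in AL2, AL3 and AL4 and 226, 211, 231 and 222 TPM in CR1 to CR4. All CR libraries lay below all AL libraries, and the change was -0.37 on the deposited scale (limma adjusted p = 0.0138) and -0.15 ± 0.06 relative to the typical gene (adjusted p = 0.151). The other 2 subunits of the exchange factor were also called. Eef1g, the scaffold subunit, had 142, 143 and 129 TPM in AL2, AL3 and AL4 and 118, 118, 119.9 and 118 TPM in CR1 to CR4. Eef1d, the other nucleotide exchange subunit, had 50.7, 50.4 and 47.5 TPM in AL2, AL3 and AL4 and 42.1, 43.6, 44.1 and 42.9 TPM in CR1 to CR4. Both fell on the deposited scale (limma adjusted p = 0.0338 and 0.0499), with relative changes of -0.00083 ± 0.05 for Eef1g and 0.02 ± 0.06 for Eef1d, each within 1 standard error of 0. Eef2, whose levels are given above, fell on the deposited scale by 0.36 log2 units (adjusted p = 0.0257), with a relative change of -0.14 ± 0.07 (95% confidence interval -0.30 to 0.02). Eef1a1 was at 2874 ± 221 TPM over the 3 AL libraries and 2528 ± 78.6 TPM over the 4 CR libraries (mean ± SD), which is a relative change of 0.03 ± 0.07 (95% confidence interval -0.12 to 0.19), and it did not pass on either scale (adjusted p = 0.15 on the deposited scale). Summed over the 5 genes, elongation factor transcripts made up 5059.7, 5557 and 4853 TPM in AL2, AL3 and AL4 and 4165, 4192, 4524 and 4404 TPM in CR1 to CR4.

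Transcripts of elongation factors and of some initiation factors are known to begin with a run of pyrimidines, through which mTORC1 controls their translation. The stretch from 40 bases before to 30 bases after the annotated start (RefSeq, build GRCm38.p6, not the build named by the submitters) was searched on the gene's strand for a C followed by at least 6 further C or T bases. The RefSeq table matched 33 of the 42 members. Of the 32 tested members with an entry, 14 held such a run at 1 or more annotated starts, and 34.0% of all 27025 genes with an entry did. The stretches of 3 genes that were lower on the deposited scale, and of 3 with the most positive relative changes, are shown to compare the bases around the start, with the longest run in capitals where there is one.
Eef2, chr10:81176591-81176660, plus strand: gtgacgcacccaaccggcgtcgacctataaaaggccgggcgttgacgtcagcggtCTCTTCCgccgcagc
Eif3f, chr7:108934375-108934444, plus strand: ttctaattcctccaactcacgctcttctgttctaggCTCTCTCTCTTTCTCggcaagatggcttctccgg
Eef1b2, chr1:63176791-63176860, plus strand: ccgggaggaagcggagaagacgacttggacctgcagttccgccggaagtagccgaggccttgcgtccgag
Eif3b, chr5:140419265-140419334, plus strand: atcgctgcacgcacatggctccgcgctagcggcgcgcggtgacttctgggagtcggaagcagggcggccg
Eif1, chr11:100319909-100319978, plus strand: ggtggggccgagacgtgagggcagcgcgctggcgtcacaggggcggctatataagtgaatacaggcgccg
Eif3j1, chr2:122028540-122028609, plus strand: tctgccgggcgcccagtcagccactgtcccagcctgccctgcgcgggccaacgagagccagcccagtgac
Eif3f held a run of 15 pyrimidines that begins 4 bases before the annotated start, and Eef2 one of 7 that begins 15 bases after it. Eef1b2, Eif3b, Eif1 and Eif3j1 held none in this window. Eif3g, Eif3m, Eif3l and Eif4enif1, with positive relative changes, held a run, as did Eef1a1 and 1 annotated start of Eef2k. Eif2a, lower on the deposited scale, held none. The run of Eif3g, 8 bases long, begins 37 bases before the annotated start, and that of Eif3m, 11 bases long, 20 bases before it. Both end before that start. Transcript levels do not measure translation, and whether runs go with the direction of change was not tested. The annotated starts may differ from those used in this tissue, which were not measured.

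eIF3, the largest initiation factor, holds the small ribosomal subunit ready for the mRNA, and 12 of its subunit genes were tested. On the deposited scale 1 of 12 fell, Eif3f, and 0 rose, while relative to the typical gene 11 of 12 had a change above 0, as did 48.6% of all tested genes, with 7 on the higher side at an unadjusted p under 0.05, where 15.8% of all tested genes lay. Eif3f, a subunit of the MPN domain type, had 164, 176 and 150.4 TPM in AL2, AL3 and AL4 and 125, 119, 130.2 and 122 TPM in CR1 to CR4. All CR libraries lay below all AL libraries (deposited change -0.40, limma adjusted p = 0.0143; relative change -0.18 ± 0.06, adjusted p = 0.0991).

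The subunits b, g and i, which form a module of eIF3 that reaches around the small subunit, had among the most positive relative changes. Eif3b, the scaffold of this module, had 167, 212 and 199 TPM in AL2, AL3 and AL4 and 208, 206, 222 and 216 TPM in CR1 to CR4, a relative change of 0.37 ± 0.07 (limma adjusted p = 0.0716). AL2 was the lowest library, and after scaling all CR libraries lay above all AL libraries. Eif3i, a WD repeat subunit, had 78.8, 74.8 and 71.9 TPM in AL2, AL3 and AL4 and 84.1, 86.5, 79.5 and 84.3 TPM in CR1 to CR4, so that CR was above AL in every library even before scaling, with a relative change of 0.37 ± 0.07 (adjusted p = 0.0716). Eif3g, an RNA-binding subunit, had 130.0, 139 and 137 TPM in AL2, AL3 and AL4 and 129, 137, 144 and 134 TPM in CR1 to CR4. The diets overlapped on the deposited scale and not after scaling, with a relative change of 0.22 ± 0.05 (adjusted p = 0.0754). Eif3j1, which encodes the loosely bound subunit j, had 10.4, 8.44 and 6.39 TPM in AL2, AL3 and AL4 and 9.17, 9.55, 10.2 and 10.1 TPM in CR1 to CR4. Its relative change was the highest of all members, 0.41 ± 0.15 (adjusted p = 0.121), and AL2 lay above all CR libraries before scaling. Without AL2 it was 0.58 and without AL4 0.26. In GENCODE M21 19.0% of its exon bases are overlapped by a gene on the opposite strand, and the strand setting of the counting is not given in the sources used here.

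Of the octamer subunits, which carry PCI or MPN domains and form the body of the complex, 3 had an unadjusted p under 0.05 on the higher side after scaling. Eif3e had 50.5, 52.3 and 45.1 TPM in AL2, AL3 and AL4 and 45.1, 47.1, 51.9 and 50.5 TPM in CR1 to CR4, with a relative change of 0.19 ± 0.07. Eif3m had 56.7, 55.0 and 48.0 TPM in AL2, AL3 and AL4 and 53.2, 49.9, 56.4 and 50.8 TPM in CR1 to CR4, with a relative change of 0.20 ± 0.08. Eif3l had 187, 199.9 and 188 TPM in AL2, AL3 and AL4 and 169, 184, 196 and 181 TPM in CR1 to CR4, with a relative change of 0.15 ± 0.06. For these 3 the adjusted p lay between 0.113 and 0.138, and the diets overlapped for all of them on the deposited scale. Eif3a, the largest scaffold subunit, had 114 to 141 TPM in AL and 111 to 129 TPM in CR and a relative change of 0.15 ± 0.07. Eif3c had 204 to 222 TPM in AL and 188 to 205 TPM in CR, with a relative change of 0.09 ± 0.07. Eif3h had 216 to 241 TPM in AL and 201 to 223 TPM in CR, with a relative change of 0.08 ± 0.06. Eif3k was at 115 ± 5.31 TPM over the 3 AL libraries and 101 ± 3.99 TPM over the 4 CR libraries (mean ± SD), with a relative change of 0.04 ± 0.07.

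Shares within the complex do not depend on how a library is scaled. Eif3f made up 10.7%, 10.9% and 9.99% in AL2, AL3 and AL4 and 8.70%, 8.25%, 8.42% and 8.21% in CR1 to CR4 of the summed TPM of the 12 subunits, so that the diets did not overlap. Eif3b made up 10.9%, 13.1% and 13.2% in AL2, AL3 and AL4 and 14.5%, 14.3%, 14.4% and 14.6% in CR1 to CR4, again without overlap and in the opposite direction. Together b, g and i made up 24.5%, 26.3% and 27.0% in AL2, AL3 and AL4 and 29.4%, 29.9%, 28.9% and 29.3% in CR1 to CR4. The 8 octamer genes made up 73.5% ± 1.167 over the AL libraries and 70.0% ± 0.415 over the CR libraries (mean ± SD). The grouping into b, g and i was made after the values were seen, and these shares are given with no test.

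**Figure D3:**
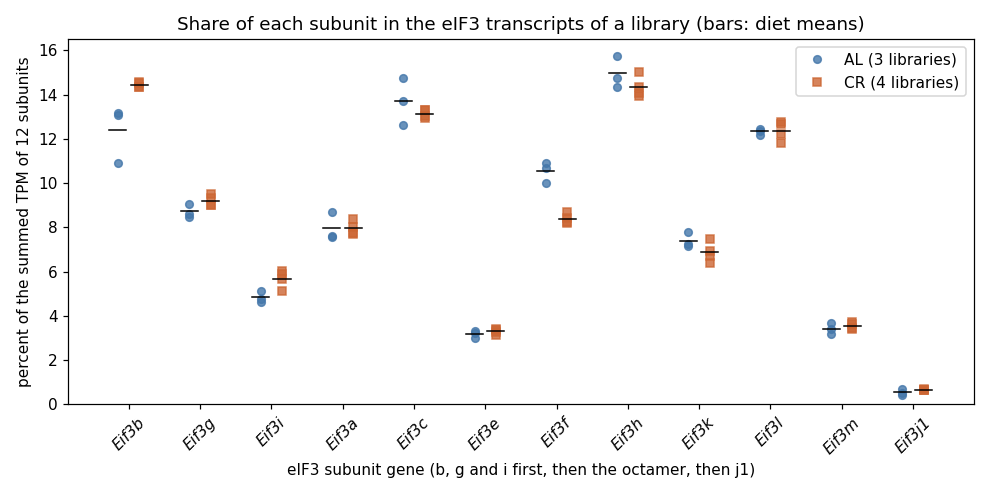
Share of each subunit gene in the summed TPM of the 12 eIF3 genes of a library (y axis, percent), with circles for AL and squares for CR and bars for the diet means. Eif3f lies between 8.21% and 8.70% in CR and between 9.99% and 10.9% in AL, and Eif3b lies above 14.3% in every CR library.

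Both measured genes of the start codon scanning factors had positive relative changes. Eif1, whose levels are given above, had a relative change of 0.38 ± 0.07 (limma adjusted p = 0.0716) and was 0.17 on the deposited scale (adjusted p = 0.128). The gene has 20 pseudogenes with 90% identity or more over at least 100 bases, and reads shared with them could not be told apart. The same limit applies to 22 of the tested members, among them Eef1a1 with 19 such pseudogenes, Eef1g with 5 and Eif5 and Eif3e with 4 each. Eif1ax, the X-linked gene for eIF1A, which works beside eIF1, had 57.5, 50.7 and 57.8 TPM in AL2, AL3 and AL4 and 56.3, 55.8, 56.9 and 54.8 TPM in CR1 to CR4. AL3 was lowest there, and the relative change was 0.23 ± 0.08 (adjusted p = 0.124), with no overlap between the diets after scaling. Without AL3 it was 0.13.

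The genes for delivery of the initiator tRNA differed among themselves. Eif2s2, which encodes the beta subunit of eIF2, was at 18.9 ± 3.80 TPM over the 3 AL libraries and 19.8 ± 1.61 TPM over the 4 CR libraries (mean ± SD), with a relative change of 0.28 ± 0.14 and overlapping diets. Eif2a is not a subunit of eIF2 but a separate factor that can bring the initiator tRNA to the ribosome without GTP, and it had 34.1, 35.2 and 28.6 TPM in AL2, AL3 and AL4 and 22.4, 21.7, 26.4 and 24.7 TPM in CR1 to CR4. It fell on the deposited scale, with every CR library below every AL library (change -0.44, limma adjusted p = 0.0244), and its relative change was -0.23 ± 0.09 (adjusted p = 0.141), with overlap after scaling. Eif2d, another factor for such delivery and for ribosome recycling, was at 13.4 ± 0.642 TPM over the 3 AL libraries and 12.3 ± 0.548 TPM over the 4 CR libraries (mean ± SD) (relative change 0.09 ± 0.08).

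Of the kinases that phosphorylate eIF2 alpha 3 were measured, and 0 of 3 passed on either scale. Eif2ak1, the heme-regulated kinase, was at 34.2 ± 2.33 TPM over the 3 AL libraries and 33.5 ± 1.83 TPM over the 4 CR libraries (mean ± SD) (relative change 0.18 ± 0.08). Eif2ak4, the kinase GCN2 that responds to uncharged tRNA, was at 7.45 ± 0.780 TPM over the 3 AL libraries and 6.75 ± 0.312 TPM over the 4 CR libraries (mean ± SD) (relative change 0.07 ± 0.10, 95% confidence interval -0.15 to 0.29). Eif2ak2 encodes PKR, which responds to double-stranded RNA and is itself induced by interferon, and it had 20.6, 48.9 and 23.5 TPM in AL2, AL3 and AL4 and 20.1, 18.7, 19.9 and 18.8 TPM in CR1 to CR4. CR lay below AL throughout before scaling, and AL3 stood apart with 2.22 times the mean of AL2 and AL4. With all libraries its relative change was -0.34 ± 0.23 (limma adjusted p = 0.351), and without AL3 it was -0.01 (adjusted p = 0.952).

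The Eif2ak2 promoter is known to hold an interferon-stimulated response element, and the annotated start in the RefSeq table (build GRCm38.p6) has GAAA, any 2 bases and GAAA again, searched on both strands of the 300-base entry, at position 19 from the start. The match is in capitals.
Eif2ak2, chr17:78882543-78882612, minus strand: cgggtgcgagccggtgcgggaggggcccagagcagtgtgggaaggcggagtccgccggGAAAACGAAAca
That pattern was found in the entries of 3.99% of all genes and of 2 of the 32 tested members with an entry, the other being Eif3a. Of 29 other interferon-induced genes examined, listed after the values of Eif2ak2 were seen, 2 had a row and both were highest in AL3, as were 40.6% of all tested genes. The antiviral gene Rsad2 had 12.4, 50.6 and 19.6 TPM in AL2, AL3 and AL4 and 18.2, 20.1, 15.5 and 12.9 TPM in CR1 to CR4. Dhx58, which encodes a sensor of viral RNA, had 8.44, 36.8 and 15.9 TPM in AL2, AL3 and AL4 and 11.5, 11.3, 10.02 and 9.61 TPM in CR1 to CR4. Against the mean of AL2 and AL4 these were 3.17 and 3.02 times as high in AL3, and what set that mouse apart was not tested.

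Of the 5 tested eIF4 genes 0 passed on either scale at an adjusted p under 0.05. Eif4h, a cofactor that stimulates the helicase eIF4A, had 166, 188 and 176 TPM in AL2, AL3 and AL4 and 167, 171, 182 and 181 TPM in CR1 to CR4. Its relative change of 0.21 ± 0.05 (limma adjusted p = 0.0754) was the only one of the 5 with an unadjusted p under 0.05, and its diets overlapped before scaling and not after it. Eif4g2, the scaffold, had a relative change of 0.12 ± 0.08, and within CR it was lower in CR1 and CR2 than in CR3 and CR4. Eif4g3, a scaffold gene related to Eif4g1, was at 34.0 ± 3.03 TPM over the 3 AL libraries and 30.8 ± 0.820 TPM over the 4 CR libraries (mean ± SD) (relative change 0.07 ± 0.08). Eif4a2, a helicase gene, had 187, 219.9 and 145 TPM in AL2, AL3 and AL4 and 128, 129, 156 and 153 TPM in CR1 to CR4, and with overlapping diets its relative change was -0.14 ± 0.12. Without AL3 it was -0.05 and without AL4 -0.29. Eif4a3, a helicase of the exon junction complex rather than of initiation, was at 82.3 ± 8.61 TPM over the 3 AL libraries and 73.7 ± 5.36 TPM over the 4 CR libraries (mean ± SD) (relative change 0.06 ± 0.09).

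Of the 4 genes of proteins that bind the cap-binding factor eIF4E, 0 passed on either scale at an adjusted p under 0.05. Eif4ebp2, which encodes 4E-BP2, had 175, 164 and 142 TPM in AL2, AL3 and AL4 and 166, 177, 165 and 202 TPM in CR1 to CR4. The diets overlapped before scaling and not after it, and the relative change was 0.36 ± 0.10 (limma adjusted p = 0.0793). Eif4ebp1, more abundant in every library, had a relative change of 0.05 ± 0.06 (95% confidence interval -0.09 to 0.19). Eif4ebp3, the least abundant of the family, had 6.98, 13.7 and 10.2 TPM in AL2, AL3 and AL4 and 4.33, 2.63, 7.63 and 4.498 TPM in CR1 to CR4. These rest on 8 to 42 reads per library, and the diets overlapped through AL2 and CR3. Its relative change was -0.80 ± 0.29 (adjusted p = 0.124), the most negative of all members, and -0.63 without AL3 (range over the alternatives -1.02 to -0.52). In GENCODE M21 67.3% of its exon bases are shared with another gene on the same strand, so its value is uncertain. Eif4enif1, which encodes the eIF4E transporter 4E-T, had 21.4, 24.8 and 22.2 TPM in AL2, AL3 and AL4 and 22.3, 20.6, 22.0 and 22.5 TPM in CR1 to CR4, a relative change of 0.15 ± 0.06 (adjusted p = 0.168).

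Because TPM are scaled by length, the 2 abundant 4E-BP transcripts can be set against each other within a library. The ratio of Eif4ebp1 to Eif4ebp2 was 2.04, 2.55 and 2.84 in AL2, AL3 and AL4 and 2.05, 2.00, 2.04 and 1.79 in CR1 to CR4. It was 0.801 times as high in CR as in AL by geometric means, with AL2 inside the range of CR. This did not pass (two-sided exact permutation p = 0.0571, adjusted over 2 ratios 0.114), and the smallest p that 35 assignments allow is 0.0286. Of 14 ratios planned, 2 had both genes in the table. The other was that of Eef2 to the gene of its kinase, Eef2k, at 43.7, 45.9 and 37.4 in AL and 40.1, 41.5, 51.1 and 54.2 in CR1 to CR4, with overlap (exact permutation p = 0.343).

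Factors of subunit joining and of eIF5A function showed 0 calls among 3 tested genes. Eif5b, the GTPase that joins the ribosomal subunits, had 61.5, 62.1 and 56.1 TPM in AL2, AL3 and AL4 and 55.0, 54.7, 57.6 and 60.4 TPM in CR1 to CR4, a relative change of 0.14 ± 0.06 (limma adjusted p = 0.163). Eif5, which makes eIF2 hydrolyse its GTP at the start codon, was lower in every CR library than in any AL library, at 126 ± 9.68 TPM over the 3 AL libraries and 100.1 ± 11.6 TPM over the 4 CR libraries (mean ± SD) (deposited change -0.33, adjusted p = 0.0518; relative change -0.11 ± 0.08). Eif5a2 was at 4.13 ± 0.163 TPM over the 3 AL libraries and 3.11 ± 0.497 TPM over the 4 CR libraries (mean ± SD), likewise without overlap before scaling, with a relative change of -0.16 ± 0.15.

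Among the enzymes that modify elongation factors, the eEF2 kinase gene fell. Eef2k, whose product phosphorylates and inactivates eEF2 and is itself restrained by mTORC1 signalling, had 41.4, 42.3 and 44.6 TPM in AL2, AL3 and AL4 and 33.1, 32.2, 29.4 and 27.0 TPM in CR1 to CR4. Every CR library was below every AL library on both scales (deposited change -0.48, limma adjusted p = 0.0143; relative change -0.27 ± 0.09, adjusted p = 0.117). Eef1akmt2 and Eef1akmt4 encode lysine methyltransferases of eEF1A, and neither passed. Eef1akmt2 was at 27.4 ± 3.31 TPM over the 3 AL libraries and 25.8 ± 3.08 TPM over the 4 CR libraries (mean ± SD) (relative change 0.13 ± 0.12), with 0.03 without AL3 and 0.24 without AL4. Eef1akmt4 was at 6.43 ± 1.016 TPM over the 3 AL libraries and 5.02 ± 1.21 TPM over the 4 CR libraries (mean ± SD) (relative change -0.13 ± 0.20), with 30.7% of its exon bases shared with other genes on its strand.

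**Figure D4:**
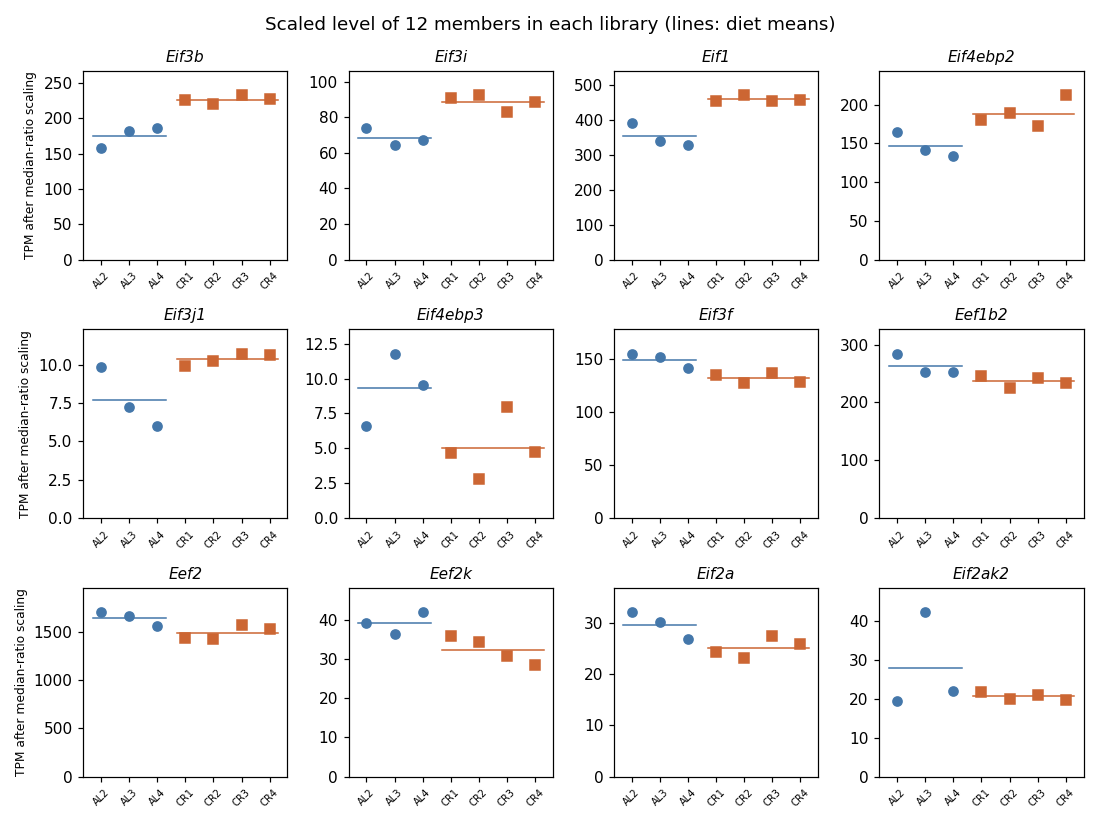
TPM after median-ratio scaling (y axis, from 0) of 12 members in each of the 7 libraries, circles for AL and squares for CR, with lines at the diet means. The CR libraries lie above the AL libraries for Eif3b, Eif3i, Eif1, Eif4ebp2 and Eif3j1 and below them for Eif3f, Eef1b2 and Eef2k, while Eif2ak2 is high in AL3 alone.

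Other genes of translation and of its control were taken from 7 lists, and in each 0 members were called after median-ratio scaling. Here too, rows with a deposited FDR under 0.05 were not analysed, so that 0 cannot show a lack of change. The background for each count of lower genes on the deposited scale is the 17.6% given above. In mTORC1 and its regulators 3 of 18 tested genes fell on the deposited scale and 0 rose, a share close to the 17.6% of all tested genes that were lower there. They were the inhibitor Tsc1, at 12.4 ± 1.93 TPM over the 3 AL libraries and 8.83 ± 0.524 TPM over the 4 CR libraries (mean ± SD), Ddit4, which restrains mTORC1 under stress, at 99.3 ± 15.1 and 62.8 ± 16.2 TPM, and Wdr24, of the GATOR2 complex, at 20.8 ± 1.14 and 17.1 ± 0.454 TPM. Relative to the typical gene, the list had a median of 0.11, against -0.01 for all tested genes. In the integrated stress response, the programme downstream of phosphorylated eIF2, 5 of 17 fell on the deposited scale, 0 rose, and the median relative change was -0.03. The serine pathway genes Shmt2 and Psat1 fell from 21.7 ± 1.09 to 14.8 ± 0.819 TPM and from 112 ± 20.04 to 83.4 ± 7.04 TPM, as did Herpud1 (124 ± 6.12 and 93.5 ± 4.15 TPM), which acts in degradation at the endoplasmic reticulum, and the amino acid transporter Slc7a5 (4.61 ± 0.972 and 2.67 ± 0.459 TPM). The fifth was Ddit4. The targets Asns, Slc3a2, Ddit3 and Atf3 had relative changes of 0.41 ± 0.11, 0.40 ± 0.13, 0.39 ± 0.16 and 0.59 ± 0.23, with adjusted p between 0.0826 and 0.152; these targets and Slc7a5 were named after their values were seen.

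The list of poly(A)-binding and initiation helper genes also holds Nat1, an arylamine acetyltransferase gene, and Dap, neither of them an established initiation helper. Of its 14 tested genes 1 fell and 0 rose on the deposited scale, with a median relative change of 0.07. It was Pabpc1, the main cytoplasmic poly(A)-binding protein gene, which went from 249.9 ± 22.4 to 185 ± 16.5 TPM (relative change -0.21 ± 0.07). Termination and ribosome rescue had 3 of 8 lower and 0 higher on that scale, and a median relative change of -0.12. They were Rack1, a protein of the small ribosomal subunit (222 ± 18.03 and 172 ± 9.52 TPM), the ubiquitin ligase Ltn1 (24.9 ± 2.14 and 18.6 ± 1.168 TPM) and the GTPase Gtpbp2 (40.9 ± 7.78 and 28.2 ± 1.84 TPM). The list for hypusine and diphthamide synthesis, the modifications of eIF5A and eEF2, also holds the polyamine genes Sat1, Odc1, Oaz2 and Amd1. Of its 11 tested genes 1 was lower, the polyamine acetyltransferase gene Sat1 (66.8 ± 3.61 and 51.1 ± 2.41 TPM), which makes neither modification. None of Dhps, Dnajc24, Dph2, Dph3, Dph5, Dph6 and Dph7 was called on either scale. The median relative change of the list was 0.05. The list of cytosolic aminoacyl-tRNA synthetases also holds Aimp1 and Aimp2, whose products are partners of these enzymes and not synthetases. Of its 13 tested genes 2 were lower, Lars (39.8 ± 2.92 and 28.6 ± 1.175 TPM) and Eprs (32.3 ± 2.31 and 25.3 ± 2.13 TPM), and the median was 0.11. In mitochondrial translation factors 0 of 5 passed on either scale (3 of 5 at an unadjusted p under 0.05 after scaling, all higher, against 15.8% of all tested genes), with Mtif2 (32.2 ± 1.53 and 32.9 ± 2.69 TPM) and Mrrf (18.9 ± 0.727 and 20.1 ± 0.862 TPM) the most abundant. At that unadjusted threshold 6 of 18 mTORC1 genes were higher and 0 lower. The stress response had 4 and 3 of 17, and the poly(A) list 5, Dap among them, and 1 of 14. Termination had 0 and 2 of 8, the hypusine and diphthamide list 4 and 1 of 11, and the synthetase list 6 and 1 of 13. Of all tested genes 15.8% were higher and 13.2% lower.

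The labelled tissue showed its defining transcripts. Of 10 adipocyte markers 6 had a row, none under 293 TPM in a library, and they summed to 65545 to 80106 TPM in AL and 50534 to 57925 TPM in CR, with 1 of 6 lower on the deposited scale and 0 of 6 called after scaling. Most of that sum was Cfd, at 51723 to 62269 TPM in AL and 37496 to 42836 TPM in CR. The deposited log2 changes were -0.53 for Cfd, -0.36 for Plin1, -0.36 for Adipoq, -0.28 for Lep, -0.030 for Pparg and 0.0075 for Cidec. The 5 endothelial markers with a row, of 8, summed to 321 to 365 TPM in AL and 248 to 306 TPM in CR. These sums were not scaled, and in that form the diets did not overlap. Before scaling 2 of 5 were called lower, as were 17.6% of all tested genes, and after scaling 0 of 5 were called. Their relative changes ran from -0.33 ± 0.12 for Tek to 0.20 ± 0.11 for Kdr, with a median of -0.09. Nerve and Schwann cell markers, 5 of 8 with a row, summed to 237 to 483 TPM in AL and 119 to 259.8 TPM in CR. For skeletal muscle 2 of 12 had a row, and Myh1 reached 64.2 TPM in AL2 against 0.325 to 9.80 TPM in the other libraries. Lymphocyte markers, 9 of 10 with a row, summed to 6.18 to 17.2 TPM in AL and 3.98 to 12.7 TPM in CR. All 10 mammary and skin epithelium markers had a row and summed to 6.24 to 8.03 TPM in AL and 1.61 to 16.6 TPM in CR, with the milk protein gene Csn2 at 0 in all libraries. Of 8 macrophage markers only Itgam had a row, at 0.0537 TPM or less, and 0 of 8 fibroblast markers had one. The part of cell composition in the values of the translation factors was not tested.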

How the data were processed

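The authors' deposited table gives TPM per gene and library and an FDR (adjusted p-value) per gene, and how both were made is not given in the sources used here. Per the submitters' processing notes, edgeR 3.38.4, featureCounts 2.0.3, SAMtools 1.17, STAR 2.7.10b and FastQC 0.12.1 and build GRCm39 were used, in roles not stated, and per the labels' protocols libraries were directional. Columns carry a diet and a number that does not match the mouse numbers of the labels, so each was assigned to its diet only, with 0 columns left unassigned, and p-values measure the spread between these libraries.

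Genes that reached 1 TPM in 4 or more libraries entered a test on log2(TPM + 1) with limma 3.58.1 (R 4.3.3, moderated with a variance trend, two-sided, Benjamini-Hochberg over all 9883 tested genes), as deposited and after median-ratio scaling, with 0.05 as the threshold. Whole reads were estimated from TPM and gene lengths of GENCODE M21, whose build is GRCm38. Of 22034 genes with reads, and at most 1000 in any library, 94.55% came out whole within 0.05 reads in all 7 libraries. The estimated reads give depth and an alternative fit. Pseudogene matches were found with BLAST 2.17.0. Ratios were tested by exact permutation (SciPy 1.17.1). The procedure was tested on simulated data.

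All members with a row are named; values in every library are given for called members, for those with an unadjusted p under 0.05 after scaling and for the 5 most abundant. From each list up to 4 called genes or, with none called, the 2 most abundant are named. Members and lists were chosen with earlier results of these data known. Alternatives were other pseudocounts, filters, moderation and scaling, recovered reads, and leaving out each library.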

Additional observations from a re-analysis of the deposited data

Results flagged for a closer look

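Of 42 groups of CR libraries tested, 1 had a library that stood apart from the others by the size of its gap to the nearest. Eif3k, an eIF3 octamer subunit gene, had 107 TPM in CR1, while CR2, CR3 and CR4 lay between 98.5 and 99.97 TPM. Chance flags about 1 in 20 such groups. The AL groups hold 3 libraries and were not examined in this way.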

How the results depend on the processing

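The count of 7 called members on the deposited scale was 9 with a filter on a mean of 5 TPM and 3 with no filter on low values. It was 0 after median-ratio scaling and 0 after quantile normalization, and it ran from 3 to 8 when 1 library was left out. The cause was not tested. After median-ratio scaling the count was 0 under every alternative run. The main scaled fit called only 5 of all 9883 tested genes, and rows with a deposited FDR under 0.05 were not analysed. These counts of 0 therefore say little about how stable the result is. Of the 40 members, 5 had a relative change that turned sign under an alternative. Eef1d was 0.018 when the deposited fit was median-ratio scaled, and its relative change was -0.0029 with a filter on a mean of 5 TPM, -0.035 with quantile normalization and -0.012 to 0.054 with a library left out. Eef1g was 0.00073 with 1 TPM in 3 libraries, 0.017 with no filter, 0.00074 with voom on recovered reads and -0.029 to 0.038 with a library left out. Eif3k was -0.017 with quantile normalization and -0.0019 to 0.087 with a library left out. With a library left out, Eif4ebp1 ran from -0.0022 to 0.082 and Eef1akmt4 from -0.26 to 0.020. Of the other single-gene values on the deposited scale, 70 kept their call and 41 lost it, and after scaling 626 kept their direction and side of the threshold. As 0 members were called in any scaled run, only the direction differed among the scaled values. With a library left out the exact test of a ratio cannot reach 0.05, so those fits say nothing about the calls; the log2 difference ran from -0.45 to -0.21 for Eif4ebp1 to Eif4ebp2 and from 0.050 to 0.21 for Eef2 to Eef2k. No paired analysis was made, as the labels name no pairs of AL and CR mice. The lowest recovered read numbers were those of Eif4ebp3 and Eef1akmt4.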
